A study of Mus musculus with 12 samples.

Results

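The comparison described here is that of 5xFAD mice given ShK-223 with 5xFAD mice labelled Control, in brain RNA sequenced as bulk libraries. It rests on 6 of the 12 libraries of the study, 3 labelled ShK-223 and 3 labelled Control, and each library came from its own mouse, per the labels. The remaining libraries were 3 labelled PAP-1 and 3 labelled PBS. They entered the fit to share 1 estimate of the spread. All 12 mice, Control included, were labelled 5xFAD, so the disease model is common to both groups and no wild-type brain is in the comparison. The sources used here state neither the dose, route and duration of ShK-223, nor the age, sex and strain of the mice, nor how Control mice and PBS mice were treated differently. The numbers 1 to 3 after a group's name only identify mice and do not pair them.

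Kv1.3, encoded by Kcna3, is a voltage-gated potassium channel of T lymphocytes and of activated microglia, in which potassium outflow keeps the membrane negative enough for calcium to enter. ShK-223 is an engineered analogue of ShK, a sea anemone toxin peptide, and blocks the outer mouth of the Kv1.3 pore. 5xFAD mice carry human APP with familial Alzheimer mutations, driven in neurons by the mouse Thy1 promoter, and develop amyloid plaques surrounded by microglia that express genes such as Trem2, Apoe, Cst7 and Itgax. A channel blocker need not alter the transcript of its own target, so Kcna3 RNA is not a check of exposure to the drug.

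The 6 libraries are all labelled whole brain and differed in the transcript of regional marker genes. Total counts ran from 15325205 to 19048551, and the RNA integrity numbers in the labels from 8 to 8.6. Control 2 stood apart. Its log2 CPM correlated at 0.922 and 0.925 with those of the other Control libraries, against 0.988 between those 2 (Pearson r across 13515 genes, a description of libraries). CPM are counts per 1000000 of a library's scaled total. A cerebellar index was formed by dividing the CPM of each listed gene by its maximum among the 12 libraries and averaging over the list. It was 0.0334, 0.0355 and 0.0365 in ShK-223 1, 2 and 3, against 0.0386, 0.781 and 0.038 in Control 1, 2 and 3. Gabra6, a GABA-A receptor subunit of cerebellar granule cells, had 0.328, 0.056 and 0.429 CPM in ShK-223 1, 2 and 3, against 1.23, 332 and 0.112 CPM in Control 1, 2 and 3. Cerebellar transcript was therefore near 0 in 5 of these 6 libraries. ShK-223 1 also stood apart from its group, with r of 0.967 and 0.97 against 0.992 between ShK-223 2 and 3. The comparison was therefore run for all libraries (3 against 3) and without Control 2 (3 against 2). Where only 1 form is given, it is 3 against 3 unless stated otherwise, and the other form can differ. Some leading results are also given without ShK-223 1.

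No gene was called in either form of the comparison. With 3 against 3, 15061 genes were tested with the quasi-likelihood test of edgeR, 0 had a Benjamini-Hochberg adjusted p at or under 0.05 and the smallest adjusted p was 0.722. Without Control 2, 15299 genes were tested, 0 were called and the smallest adjusted p was 0.248. At an unadjusted p under 0.05 there were 1027 genes (6.82% of those tested, 377 higher and 650 lower with ShK-223) with 3 against 3 and 836 genes (5.46%, 402 higher and 434 lower) without Control 2. DESeq2 called 10 genes (6 higher) with 3 against 3 and 18 (11 higher) without Control 2, of which 5 were shared. limma-voom called 0 in both. The median log2 fold change over all genes tested was -0.02 with 3 against 3 and 0.01 without Control 2, and the median SE of a gene's log2 fold change was 0.173 and 0.159. The ShK-223 and Control values did not overlap for 1589 genes (10.6%, 792 higher and 797 lower) with 3 against 3, and for 3815 genes (24.9%, 1843 higher and 1972 lower) without Control 2. In bulk tissue, fewer cells of a type and less RNA per cell cannot be told apart. The genes and groups below are described against these shares, and none of them passed the adjusted threshold in edgeR.

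The genes with the smallest p among those whose groups did not overlap led with Fibcd1, which encodes a membrane-anchored chitin-binding receptor and lies on chromosome 2, 31813290 to 31846005 (GRCm38, GENCODE vM21). Fibcd1 had 30.6, 22.3 and 19.2 CPM in ShK-223 1, 2 and 3, against 5.58, 4.48 and 7.51 CPM in Control 1, 2 and 3. Every ShK-223 library was above every Control library. It averaged 24 ± 5.86 CPM with ShK-223 and 5.85 ± 1.53 CPM in Control (SD, n = 3 each), a log2 fold change of 2.04 (SE 0.34) with 3 against 3 and of 1.87 (SE 0.38) without Control 2. Without ShK-223 1 it was 1.83 (SE 0.36), and the ratio within a batch was 1.91 in batch B and 1.63 in batch CH on the log2 CPM scale with 0.5 added. DESeq2 called Fibcd1 in both forms of the comparison.

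Nt5dc3, a member of the 5'-nucleotidase domain family (chromosome 10, 86779005 to 86838389), had 119, 100 and 111 CPM in ShK-223 1, 2 and 3, against 70.1, 85.8 and 69.2 CPM in Control 1, 2 and 3. The difference was smaller than for Fibcd1 and the spread was narrow, with a log2 fold change of 0.56 (SE 0.10) with 3 against 3 and 0.66 (SE 0.09) without Control 2. Nrn1, encoding neuritin, an activity-regulated protein that promotes neurite growth (chromosome 13, 36725361 to 36735131), had 134, 106 and 113 CPM in ShK-223 1, 2 and 3, against 65.8, 64.5 and 75.3 CPM in Control 1, 2 and 3. The highest Control library was below the lowest ShK-223 library, at 0.78 (SE 0.16) and 0.74 (SE 0.18) log2 units in the same order. C1ql2, a secreted C1q-like protein of hippocampal mossy-fibre synapses (chromosome 1, 120340582 to 120343174), had 24.2, 2.74 and 13.4 CPM in ShK-223 1, 2 and 3, against 1.75, 2.03 and 0.784 CPM in Control 1, 2 and 3. ShK-223 2 lay just above the highest Control library and the other ShK-223 libraries far above it. The log2 fold change of C1ql2 was 3.14 (SE 0.68), the log2 ratio 0.53 in batch B and 3.85 in batch CH, and Fibcd1 and C1ql2 both belong to the hippocampus marker list described below.

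The 4 further genes of this kind were Golga7b, a partner of palmitoyltransferases, Ext1, a heparan sulfate polymerase, Egfl6, a secreted EGF-repeat protein, and Ccdc177, a coiled-coil protein. Golga7b had 87.3, 100 and 93.1 CPM in the ShK-223 libraries, against 70.7, 72.4 and 78.4 CPM in the Control libraries. Ext1 had 62.3, 58.3 and 58.6 CPM in the ShK-223 libraries, against 47.2, 43.6 and 46 CPM in the Control libraries. Egfl6 had 3.28, 2.69 and 2.36 CPM in the ShK-223 libraries, against 1.23, 1.05 and 1.51 CPM in the Control libraries. Each of these was higher in every ShK-223 library than in any Control library, by 0.34 (SE 0.07), 0.39 (SE 0.09) and 1.13 (SE 0.25) log2 units. Ccdc177 had 19.5, 20.3 and 20.3 CPM in the ShK-223 libraries, against 14.9, 14.5 and 15.3 CPM in the Control libraries. Its spread was small in both groups, and the difference was 0.43 (SE 0.10) log2 units.

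On the lower side, P2ry1, the ADP receptor P2Y1 (chromosome 3, 61002795 to 61008982), had 1.86, 2.24 and 1.5 CPM in ShK-223 1, 2 and 3, against 7.72, 4.36 and 4.99 CPM in Control 1, 2 and 3. All ShK-223 libraries were below all Control libraries. It averaged 1.87 ± 0.37 CPM with ShK-223 and 5.69 ± 1.79 CPM in Control (SD, n = 3 each), with a log2 fold change of -1.60 (SE 0.34) with 3 against 3, -1.76 (SE 0.35) without Control 2 and -1.60 (SE 0.41) without ShK-223 1. The log2 ratio was -1.59 in batch B and -1.34 in batch CH. Pde1c, a calcium- and calmodulin-dependent phosphodiesterase (chromosome 6, 56069804 to 56569103), had 8.63, 12.9 and 10.2 CPM in ShK-223 1, 2 and 3, against 25.9, 70.2 and 23.2 CPM in Control 1, 2 and 3. Control 2 was far above the rest, and the log2 fold change was -1.91 (SE 0.40) with it and -1.21 (SE 0.24) without it.

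Mctp1, a calcium-binding C2-domain membrane protein (chromosome 13, 76384535 to 77031810), had 42.3, 58.7 and 50.4 CPM in ShK-223 1, 2 and 3, against 83.7, 82.2 and 70.9 CPM in Control 1, 2 and 3. Pbx3, a TALE homeobox transcription factor (chromosome 2, 34171457 to 34373142), had 11.6, 13.7 and 11.7 CPM in ShK-223 1, 2 and 3, against 25.9, 24.1 and 18.9 CPM in Control 1, 2 and 3. Neither gene's groups overlapped, and their log2 fold changes were -0.65 (SE 0.13) and -0.90 (SE 0.18) with 3 against 3 and -0.61 (SE 0.14) and -0.86 (SE 0.20) without Control 2. Xkr8, a phospholipid scramblase, had 5.62, 6.27 and 5.25 CPM in the ShK-223 libraries, against 11.5, 9.76 and 8.18 CPM in the Control libraries. Tspan15, a tetraspanin that partners the protease ADAM10, had 13.2, 14.7 and 14.5 CPM in the ShK-223 libraries, against 20, 25.7 and 19.3 CPM in the Control libraries. Itgb1bp1, an inhibitor of integrin activation, had 12.8, 18.2 and 15.5 CPM in the ShK-223 libraries, against 23.2, 24.6 and 21.6 CPM in the Control libraries. These 3 did not overlap between the groups either, at -0.78 (SE 0.17), -0.62 (SE 0.14) and -0.58 (SE 0.13) log2 units. Fam184b had 8.96, 12.7 and 9.27 CPM in the ShK-223 libraries, against 16.2, 21.4 and 18.8 CPM in the Control libraries, -0.86 (SE 0.19) log2 units, with no overlap.

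**Figure D1:**
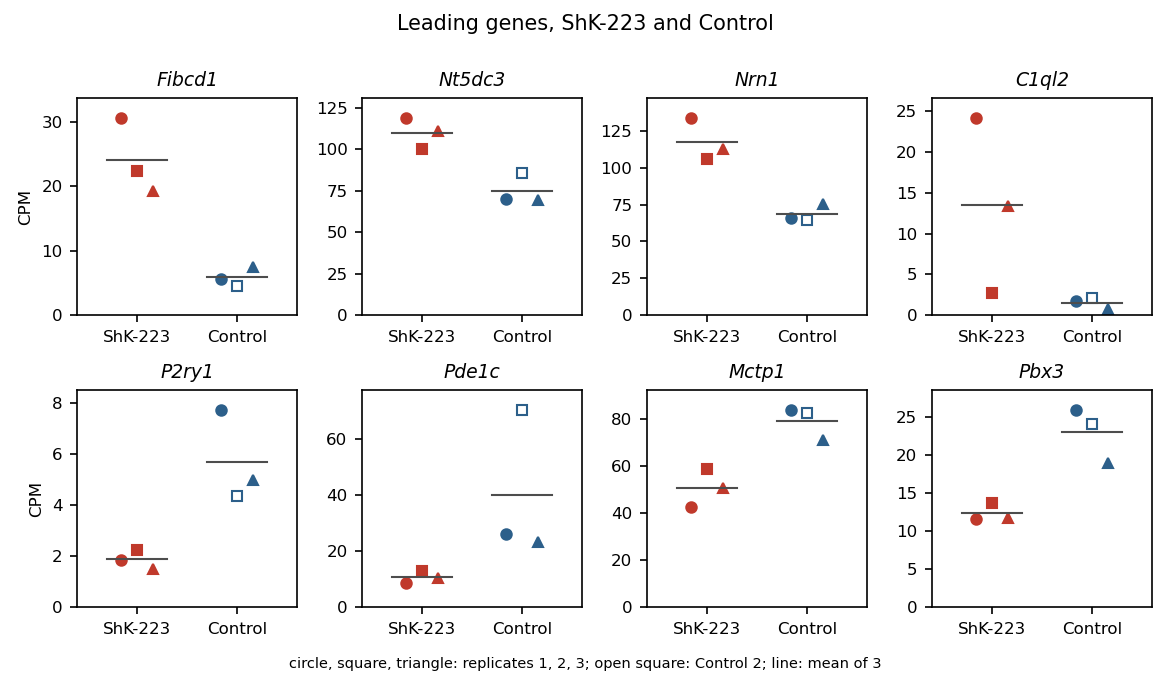
CPM (counts per 1000000, linear axes from 0) of 8 leading genes in each ShK-223 library (red) and each Control library (blue), with the open square for Control 2 and the line for the mean of 3 libraries. The 4 genes of the top row were higher and the 4 of the bottom row lower in every ShK-223 library, and Control 2 stands far from the other Control libraries for Pde1c (70.2 CPM against 25.9 and 23.2).

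Leaving out Control 2 brought forward genes on which that library differed from the other Control libraries. Chst8, a GalNAc 4-O-sulfotransferase, had 12.9, 10.8 and 14.1 CPM in ShK-223 1, 2 and 3, against 5.51, 16.6 and 6.27 CPM in Control 1, 2 and 3. Only Control 1 and 3 were below the ShK-223 range, so the log2 fold change was 1.09 (SE 0.15) without Control 2 and 0.41 (SE 0.34) with it. Cabp7, a neuronal calcium-binding protein, was also lowest in Control 1 and 3, with 51.3, 33 and 31.6 CPM in the ShK-223 libraries, against 13, 49.5 and 14.2 CPM in the Control libraries and log2 fold changes of 1.50 (SE 0.28) without Control 2 and 0.59 (SE 0.46) with it. Shisa6, an auxiliary subunit of AMPA receptors, had 39.4, 28.9 and 36.6 CPM in the ShK-223 libraries, against 18.5, 185 and 16.2 CPM in the Control libraries. Its log2 fold change was 1.01 (SE 0.22) without Control 2 and -1.06 (SE 0.75) with it, a change of sign. Wdfy1, an endosomal adaptor of Toll-like receptors, had 53.2, 49.4 and 46.8 CPM in the ShK-223 libraries, against 21.5, 43.5 and 33.2 CPM in the Control libraries and separated the groups in both forms, at 0.60 (SE 0.21) and 0.86 (SE 0.17) log2 units.

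Among genes lower without Control 2, Igfbp5, an insulin-like growth factor binding protein, had 313, 331 and 371 CPM in ShK-223 1, 2 and 3, against 530, 341 and 457 CPM in Control 1, 2 and 3. Foxo1, a forkhead transcription factor downstream of insulin signalling, had 27.6, 41.8 and 28.2 CPM in the ShK-223 libraries, against 68.6, 37.5 and 55.3 CPM in the Control libraries. Control 2 lay within the ShK-223 range for both, so they overlapped with 3 against 3 and not without Control 2, at -0.55 (SE 0.11) and -0.93 (SE 0.21) log2 units. Klhl13, a substrate adaptor of a ubiquitin ligase, had 24.8, 40.4 and 28.5 CPM in the ShK-223 libraries, against 72.3, 28.8 and 51.5 CPM in the Control libraries, -0.99 (SE 0.22) log2 units. Control 2 again lay within the ShK-223 range. Map3k9, a mixed-lineage kinase upstream of JNK, had 53.6, 50.4 and 51.1 CPM in the ShK-223 libraries, against 34.8, 60.2 and 39.5 CPM in the Control libraries, and was higher by 0.48 (SE 0.10) log2 units without Control 2. Evpl, the junction protein envoplakin, had 12.9, 13 and 12.4 CPM in the ShK-223 libraries, against 18.6, 9.59 and 18.4 CPM in the Control libraries, -0.53 (SE 0.11) log2 units. Control 2 lay beyond the ShK-223 range on the opposite side from Control 1 and 3 for both. Abtb3 and Tdrp were at 0.55 (SE 0.11) and -0.59 (SE 0.12) log2 units without Control 2.

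The levels of the leading genes in the other groups of the study place these values. Fibcd1 had 27.9, 48.1 and 66.7 CPM in PAP-1 1, 2 and 3 and 2.57, 3.51 and 1.84 CPM in PBS 1, 2 and 3. P2ry1 had 1.45, 2.51 and 1.38 CPM in the PAP-1 libraries and 3.74, 6.82 and 4.73 CPM in the PBS libraries. For both genes PAP-1 lay on the side of ShK-223 and PBS on the side of Control. Chst8, in contrast, had 16.2, 20.5 and 18.5 CPM with PAP-1 and 22.1, 24.9 and 23.3 CPM with PBS, with all of them at or above the Control 2 value apart from PAP-1 1. Foxo1 had 25.3, 29.7 and 38.1 CPM with PAP-1 and 30.9, 30 and 25.9 CPM with PBS. For these 2 genes, Control 1 and 3 lay apart from the PBS and PAP-1 libraries as well as from the ShK-223 libraries. The groups also differed in regional transcript. The cerebellar index was 0.821, 0.991 and 0.897 in PBS 1, 2 and 3 and 0.178, 0.039 and 0.0352 in PAP-1 1, 2 and 3. The index of the hippocampus list described below was 0.299, 0.336 and 0.308 in PBS 1, 2 and 3 and 0.51, 0.645 and 0.617 in PAP-1 1, 2 and 3. The values of these genes share libraries with one another, and neither they nor the part of tissue composition in them was tested here.

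Kcna3 itself was low and close in the groups. It had 3.71, 3.53 and 4.23 CPM in ShK-223 1, 2 and 3, against 3.24, 2.56 and 3.7 CPM in Control 1, 2 and 3 (chromosome 3, 107036169 to 107038070). The ranges overlapped, with a log2 fold change of 0.27 (SE 0.22) with 3 against 3 and 0.14 (SE 0.23) without Control 2. The Kv1 list holds the 8 pore-forming subunits and 3 beta subunits, which assemble with them and modify their inactivation. Of its 9 tested members, 0 were higher and 0 lower at an unadjusted p under 0.05 with 3 against 3, beside 2.5% and 4.32% of all genes tested, and the median log2 fold change was -0.03. Kcna2, a subunit of axonal channels and the most abundant in CPM of the pore-forming members, had 336, 463 and 473 CPM in the ShK-223 libraries, against 338, 595 and 366 CPM in the Control libraries. Kcna1, its partner at juxtaparanodes, had 72.2, 102 and 98.5 CPM in the ShK-223 libraries, against 91.1, 140 and 91.5 CPM in the Control libraries. Both overlapped between the groups. Kcna5 had 2.62, 4.59 and 1.5 CPM in the ShK-223 libraries, against 11.9, 0.988 and 5.94 CPM in the Control libraries and did not overlap without Control 2, at -1.62 (SE 0.64) log2 units. This was the 1 member lower at an unadjusted p under 0.05 without Control 2 (beside 2.84% of all genes), and its highest libraries, Control 1 and 3, were those with the most striatal transcript. PAP-1 1 and 3 had 80 and 87 counts of Kcna5 at striatal indices of 0.133 and 0.178, and ShK-223 2 had 82 counts at 0.681. The part of striatal transcript in the Kcna5 values was not tested. Kcna4, Kcna6, Kcnab1, Kcnab2 and Kcnab3 lay between -0.42 (Kcna4) and 0.32 (Kcnab3) log2 units without Control 2, and Kcna7 and Kcna10 did not pass the filter on low counts. Kcna4 and Kcna6 were, like Kcna5, lower with no overlap without Control 2. That made 3 of the 9 tested members, beside 12.9% of all genes.

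Endogenous App was close in both groups. It had 1930, 1900 and 2010 CPM in ShK-223 1, 2 and 3, against 1810, 1630 and 1900 CPM in Control 1, 2 and 3. No ShK-223 library was below a Control library, and the margin was narrow, at 0.13 (SE 0.09) log2 units. Thy1, whose promoter drives the transgene, had 2810, 1860 and 2280 CPM in the ShK-223 libraries, against 1840, 866 and 2190 CPM in the Control libraries, which overlapped. The sources used here do not say whether reads of human APP were counted in the App row. Of the 24 genes for amyloid processing and clearance, 0 were higher and 1 lower at an unadjusted p under 0.05, and 3 and 1 did not overlap, beside 5.26% and 5.29% of all genes. The one that was lower was Adam17, a protease that sheds membrane proteins and can cut App at the alpha site, with 24.4, 25.4 and 23.3 CPM in the ShK-223 libraries, against 30.3, 31.2 and 26 CPM in the Control libraries at -0.26 (SE 0.10) log2 units with 3 against 3. Without Control 2, 0 of the 24 reached that p. Bin1, an endocytic Alzheimer risk gene, had 356, 351 and 364 CPM in the ShK-223 libraries, against 325, 315 and 346 CPM in the Control libraries. Like App, it was higher with no overlap. Abca1, a cholesterol exporter that lipidates ApoE, had 73.8, 66.3 and 64.6 CPM in the ShK-223 libraries, against 112, 88.3 and 70.6 CPM in the Control libraries. Clu, the secreted chaperone clusterin, had 973, 943 and 976 CPM in the ShK-223 libraries, against 1150, 598 and 1070 CPM in the Control libraries. Both overlapped, Abca1 through Control 3 and Clu through Control 2.

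Microglial genes did not separate the groups with 3 against 3. Of 19 tested homeostatic microglia genes, which mark resting surveillance, 0 reached an unadjusted p under 0.05 and the median log2 fold change was -0.09. P2ry12, the ADP receptor of resting microglia, had 31, 47.3 and 47.8 CPM in ShK-223 1, 2 and 3, against 62, 20.2 and 43.5 CPM in Control 1, 2 and 3. Tmem119 had 32.3, 30.3 and 31.5 CPM in ShK-223 1, 2 and 3, against 40.2, 14.6 and 28.7 CPM in Control 1, 2 and 3. Control 2 was the lowest library and Control 1 the highest for both, with ShK-223 between them. Csf1r, the receptor on which microglia depend for survival, had 178, 194 and 199 CPM in the ShK-223 libraries, against 344, 85.6 and 212 CPM in the Control libraries. Without Control 2 the median of the list was -0.42, 10 of 19 members were lower with no overlap (beside 12.9% of all genes) and 2 reached an unadjusted p under 0.05 (beside 2.84%). The first was Sall1, a microglial transcription factor, with 32.4, 38.2 and 38.7 CPM in the ShK-223 libraries, against 61.9, 17.2 and 42.6 CPM in the Control libraries. The second was Selplg, an adhesion ligand, with 44.2, 48.6 and 48.8 CPM in the ShK-223 libraries, against 77.4, 20.7 and 53.2 CPM in the Control libraries. Their log2 fold changes were -0.52 (SE 0.15) and -0.47 (SE 0.21) without Control 2.

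The plaque-associated genes, which microglia express when they contact amyloid, also had their lowest list index among the 6 libraries in Control 2 (0.328). This did not hold for every member, and Hif1a, chosen after its values were seen, was highest in Control 2. Of 30 tested, 0 reached an unadjusted p under 0.05 in either form, and the median log2 fold change was 0.02 with 3 against 3 and -0.31 without Control 2, where 10 members were lower with no overlap (beside 12.9% of all genes). Trem2, the lipid-sensing receptor needed for this response, had 68.5, 69.5 and 101 CPM in ShK-223 1, 2 and 3, against 98.5, 20.3 and 98.5 CPM in Control 1, 2 and 3. Cst7, a cathepsin inhibitor, had 35.2, 40.1 and 66.3 CPM in ShK-223 1, 2 and 3, against 68.1, 9.01 and 65.5 CPM in Control 1, 2 and 3. Itgax, an integrin, had 14.7, 24.6 and 31.8 CPM in ShK-223 1, 2 and 3, against 23.2, 5.46 and 36.7 CPM in Control 1, 2 and 3. In all 3, Control 2 was the lowest library, and the ShK-223 values overlapped those of Control 1 and 3. Apoe, the main lipid carrier of the brain, had 1670, 1820 and 1970 CPM in the ShK-223 libraries, against 2410, 1350 and 2190 CPM in the Control libraries, with a log2 fold change of -0.12 (SE 0.21) with 3 against 3 and -0.34 (SE 0.17) without Control 2.  The summed CPM of the homeostatic list was 798, 903 and 942 CPM in ShK-223 1, 2 and 3, against 1360, 429 and 969 CPM in Control 1, 2 and 3.

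Of 15 further ion channels listed for microglia, 14 were tested and 0 were at an unadjusted p under 0.05 in either form, with medians of -0.11 and -0.12 log2 units. Kcnj2, an inward rectifier, had 14, 26.2 and 27.2 CPM in the ShK-223 libraries, against 28.2, 8.6 and 31.5 CPM in the Control libraries. P2rx7, an ATP-gated channel that triggers the inflammasome, had 12.2, 14.9 and 15.5 CPM in the ShK-223 libraries, against 17.9, 14.8 and 14.9 CPM in the Control libraries. Both overlapped with 3 against 3. Kcnn4, a calcium-activated potassium channel that works beside Kv1.3 in T cells, was under the filter, with 0.382, 0.336 and 0.482 CPM in the ShK-223 libraries, against 0.454, 0.349 and 0.336 CPM in the Control libraries.

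Among the immune lists, 4 genes of MHC class II separated the groups in both forms of the comparison. These proteins present extracellular peptides to CD4 T cells. H2-Eb1 (chromosome 17, 34305867 to 34316674) and H2-Ab1 encode beta chains, H2-Aa (chromosome 17, 34282744 to 34287823) an alpha chain, and Cd74 the invariant chain that guards the groove until loading. The 300 bases around the start (250 before and 50 after) of the 2 of these 4 genes found in the RefSeq promoters of GRCm38.p6 are printed because class II promoters share an X and Y box region, in which the Y box is a CCAAT motif. They lie at chr17:34287774-34288073 (minus strand) and chr17:34305617-34305916 (plus strand) and read 5′ to 3′ on the gene's strand, with every CCAAT or its complement ATTGG in capitals.
H2-Aa: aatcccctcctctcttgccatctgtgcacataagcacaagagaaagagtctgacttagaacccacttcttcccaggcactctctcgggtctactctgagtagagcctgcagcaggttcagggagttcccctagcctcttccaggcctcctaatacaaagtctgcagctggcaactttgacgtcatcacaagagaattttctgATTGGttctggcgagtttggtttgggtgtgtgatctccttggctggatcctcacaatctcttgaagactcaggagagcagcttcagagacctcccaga
H2-Eb1: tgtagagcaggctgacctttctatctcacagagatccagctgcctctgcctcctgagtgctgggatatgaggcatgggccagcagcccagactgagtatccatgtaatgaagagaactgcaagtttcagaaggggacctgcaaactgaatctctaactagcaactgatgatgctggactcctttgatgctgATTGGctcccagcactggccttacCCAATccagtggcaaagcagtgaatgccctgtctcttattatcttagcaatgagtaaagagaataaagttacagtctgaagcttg
The motif CCAAT, searched on both strands, occurs 1 time in the first and 2 times in the second, between 59 and 35 bases before the start. It is also present in 37.4% of all 32851 promoters of that length, and a match is a description of the letters only.

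H2-Eb1 had 17.5, 5.65 and 4.55 CPM in ShK-223 1, 2 and 3, against 2.01, 2.32 and 2.52 CPM in Control 1, 2 and 3. H2-Aa had 18.6, 7.84 and 7.34 CPM in ShK-223 1, 2 and 3, against 3.31, 1.51 and 3.75 CPM in Control 1, 2 and 3. Cd74 had 54.9, 27.4 and 25.4 CPM in ShK-223 1, 2 and 3, against 15.7, 6.45 and 14.6 CPM in Control 1, 2 and 3. All 4 genes, H2-Ab1 included (19.5, 7.33 and 5.84 CPM in the ShK-223 libraries, against 3.7, 1.74 and 4.76 CPM in the Control libraries), were higher in every ShK-223 library than in any Control library, and ShK-223 1 was the highest library each time. The log2 fold changes were 2.01 (SE 0.57) for H2-Eb1, 1.98 (SE 0.57) for H2-Aa, 1.68 (SE 0.56) for H2-Ab1 and 1.55 (SE 0.49) for Cd74 with 3 against 3. They were 2.02 (SE 0.69), 1.67 (SE 0.61), 1.36 (SE 0.59) and 1.25 (SE 0.50) in that order without Control 2, and 1.16 (SE 0.47), 1.41 (SE 0.56), 0.95 (SE 0.50) and 1.11 (SE 0.50) without ShK-223 1. Within a batch, the log2 ratio of H2-Eb1 was 1.29 in batch B and 1.66 in batch CH, and that of Cd74 was 0.78 in batch B and 1.33 in batch CH. These 4 were the only members at an unadjusted p under 0.05 among the 20 antigen presentation genes, of which 5 were higher and 0 lower with no overlap. Of all genes, 2.5% were higher at that p and 5.26% were higher with no overlap. The median of the list was 0.38 log2 units with 3 against 3 and 0.19 without Control 2. In the latter form, 6 members were higher and 1 lower with no overlap, beside 12% and 12.9% of all genes. H2-DMa and H2-DMb1, chosen after their values were seen, are further class II genes of the list. H2-DMa was the lower one, and H2-DMb1 overlapped in both forms. Ciita, the regulator of class II genes, had 4.48, 4.14 and 4.61 CPM in the ShK-223 libraries, against 3.44, 4.48 and 3.3 CPM in the Control libraries, and B2m, the partner of class I chains, had 212, 156 and 161 CPM in the ShK-223 libraries, against 204, 88.8 and 156 CPM in the Control libraries. Both overlapped, and both were chosen after their values were seen.

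Markers of cells that carry class II were examined beside these values. The border macrophage and monocyte list of 14 genes summed to 130, 45.1 and 29.9 CPM in ShK-223 1, 2 and 3, against 35.9, 42.9 and 41.9 CPM in Control 1, 2 and 3, and was highest in ShK-223 1. Cbr2, a carbonyl reductase of border macrophages, had 71.9, 7.5 and 0.75 CPM in the ShK-223 libraries, against 2.79, 4.82 and 7.56 CPM in the Control libraries. Chil3, of monocytes, had 7.26, 0.392 and 0 CPM in the ShK-223 libraries, against 0, 0.465 and 0.336 CPM in the Control libraries. Lyve1, of perivascular macrophages, had 5.73, 1.01 and 0.804 CPM in the ShK-223 libraries, against 0.843, 2.5 and 0.784 CPM in the Control libraries, which was highest in ShK-223 1. Ms4a7, of border macrophages, had 0.928, 0.504 and 0.482 CPM in the ShK-223 libraries, against 0.324, 0.523 and 0.336 CPM in the Control libraries. ShK-223 1 was highest for all 4, and ShK-223 3 was below the Control range for Cbr2. Cbr2 alone made up 71.9 of the 130 CPM summed in ShK-223 1. Other members of the list, chosen after their values were seen, differed less. Mrc1 had 162 counts in ShK-223 1 and 143 in Control 2, and Cd163 was highest in Control 3 (92 counts, against 73 in ShK-223 1). The B cell gene Ms4a1 and the T cell genes Cd3d, Cd3e and Cd8a were under 1 CPM in all 6 libraries (chosen after their values were seen), and 4 of the 18 matched T, B and NK cell genes passed the filter. Cd4 was one of them, with 0.71, 19.3 and 11.4 CPM in the ShK-223 libraries, against 29.6, 0.581 and 23.7 CPM in the Control libraries, low in ShK-223 1 and Control 2, as were the striatal markers given below. The part of these cells in the class II values was not tested.

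The type I interferon genes, which cells switch on through factors such as IRF9, were high in 1 ShK-223 mouse. The list index was 0.986, 0.217 and 0.182 in ShK-223 1, 2 and 3, against 0.397, 0.294 and 0.271 in Control 1, 2 and 3. Isg15, a ubiquitin-like modifier, had 23.9, 2.69 and 2.09 CPM in ShK-223 1, 2 and 3, against 4.67, 3.6 and 3.53 CPM in Control 1, 2 and 3. Cxcl10, a chemokine for T cells, had 31.2, 1.23 and 1.02 CPM in ShK-223 1, 2 and 3, against 3.37, 2.38 and 1.96 CPM in Control 1, 2 and 3. Ifi44 had 15.1, 1.57 and 0.804 CPM in the ShK-223 libraries, against 2.34, 2.21 and 1.79 CPM in the Control libraries. Rsad2, the antiviral enzyme viperin, had 20, 3.08 and 2.63 CPM in the ShK-223 libraries, against 3.5, 4.65 and 4.37 CPM in the Control libraries. For all 4, ShK-223 1 was far above the other 5 libraries, and ShK-223 2 and 3 were below the Control range. The promoters of Isg15, Rsad2 and Cxcl10 (RefSeq, GRCm38.p6, chr4:156200769-156201068 (minus strand), chr12:26456403-26456702 (minus strand) and chr5:92348840-92349139 (minus strand), 5′ to 3′ on the gene's strand) are printed to show the element through which IRF9 and its partners act, with GAAANNGAAA on either strand in capitals.
Isg15: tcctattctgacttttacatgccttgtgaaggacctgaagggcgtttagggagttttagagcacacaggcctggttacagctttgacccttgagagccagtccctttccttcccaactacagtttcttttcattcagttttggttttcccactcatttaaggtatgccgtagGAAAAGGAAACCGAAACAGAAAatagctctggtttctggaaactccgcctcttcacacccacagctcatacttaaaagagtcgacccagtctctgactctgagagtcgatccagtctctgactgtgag
Rsad2: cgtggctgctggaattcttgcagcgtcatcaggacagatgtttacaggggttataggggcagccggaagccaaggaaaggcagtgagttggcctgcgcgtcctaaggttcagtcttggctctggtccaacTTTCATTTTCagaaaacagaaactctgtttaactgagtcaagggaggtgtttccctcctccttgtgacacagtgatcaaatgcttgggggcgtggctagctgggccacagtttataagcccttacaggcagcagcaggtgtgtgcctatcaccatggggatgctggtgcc
Cxcl10: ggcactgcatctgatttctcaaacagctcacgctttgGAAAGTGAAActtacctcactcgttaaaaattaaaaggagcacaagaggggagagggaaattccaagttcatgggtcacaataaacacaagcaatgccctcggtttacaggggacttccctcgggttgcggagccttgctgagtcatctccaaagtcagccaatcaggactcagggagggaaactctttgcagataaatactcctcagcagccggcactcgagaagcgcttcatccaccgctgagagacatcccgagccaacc
Isg15 holds 3 overlapping matches that begin 78 bases before the start. GAAANNGAAA was found in 9 of the 16 list members with a promoter in that table (56.2%, counted per gene), against 3.44% of all promoters (counted per promoter).

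The group difference of these genes had a wide error. The log2 fold change of Isg15 was 1.28 (SE 0.98) with 3 against 3, 1.22 (SE 1.16) without Control 2 and -0.71 (SE 0.83) without ShK-223 1. Of the 22 genes, 0 reached an unadjusted p under 0.05 and 0 separated the groups in either form. Their median log2 fold change was 0.51 with 3 against 3, 0.44 without Control 2 and -0.79 without ShK-223 1. In batch CH, which holds ShK-223 1, all 22 ratios were above 0 (median 0.61), and in batch B, 0 of 22 were (median -0.79).

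**Figure D2:**
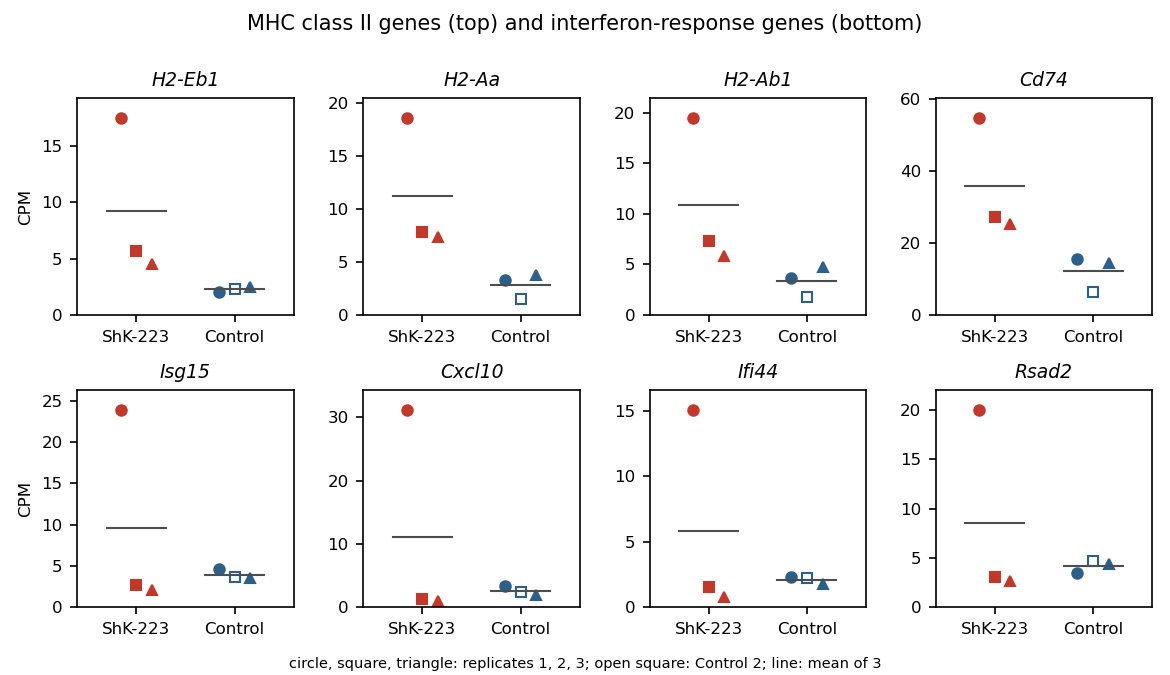
CPM (linear axes from 0) of 4 MHC class II genes and 4 interferon-response genes in each ShK-223 (red) and Control (blue) library, with the open square for Control 2 and the line for the mean of 3 libraries. All ShK-223 libraries were above all Control libraries for the class II genes, whereas only ShK-223 1 was high for the interferon genes (Isg15 at 23.9 CPM against 2.69 and 2.09 in ShK-223 2 and 3).

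Complement and Fc receptor genes gave 0 of 19 members at an unadjusted p under 0.05 in both forms. C4b, a component of the classical complement pathway, had 317, 305 and 291 CPM in the ShK-223 libraries, against 458, 125 and 418 CPM in the Control libraries. C3ar1, the receptor of C3a, had 9.5, 8.79 and 9.16 CPM in the ShK-223 libraries, against 16.3, 3.95 and 10.9 CPM in the Control libraries. Itgb2, the beta chain of complement receptor 3, had 21.1, 17.8 and 20.8 CPM in the ShK-223 libraries, against 35.5, 7.56 and 20.6 CPM in the Control libraries. Control 2 was the lowest library for all 3. Among 18 cytokine and NF-kB feedback genes, 3 were higher at an unadjusted p under 0.05 and 0 lower (beside 2.5% and 4.32% of all genes). Casp1, the inflammasome protease, had 8.41, 4.53 and 4.55 CPM in ShK-223 1, 2 and 3, against 2.79, 4.3 and 2.3 CPM in Control 1, 2 and 3. Every ShK-223 library was above every Control library, at 0.90 (SE 0.34) log2 units with 3 against 3 and 1.20 (SE 0.36) without Control 2. ShK-223 2 and 3 lay only just above Control 2, and the log2 fold change of Casp1 was 0.545 (SE 0.327) without ShK-223 1. Nfkbia, the inhibitor that NF-kB induces, had 28.1, 20.2 and 21.4 CPM in the ShK-223 libraries, against 15.6, 21.6 and 15.4 CPM in the Control libraries. Relb, a subunit of the non-canonical NF-kB dimer, had 7.54, 6.61 and 5.73 CPM in the ShK-223 libraries, against 5.84, 3.55 and 4.31 CPM in the Control libraries. Both overlapped, at 0.41 (SE 0.17) and 0.54 (SE 0.22) log2 units. Il10ra, an anti-inflammatory receptor chain, had 12.1, 11 and 11.5 CPM in the ShK-223 libraries, against 18.6, 8.02 and 13.1 CPM in the Control libraries. Il6, Tnf, Ccl2 and Il1rn, chosen after their values were seen, did not pass the filter on low counts.

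Of 25 immediate early genes, which neuronal activity induces, 3 were higher and 0 lower at an unadjusted p under 0.05 (beside 2.5% and 4.32% of all genes), and 2 were higher with no overlap (beside 5.26%). Members ran from -1.22 to 1.27 log2 units with 3 against 3. The median log2 fold change was 0.52 with 3 against 3 and 0.50 without Control 2, beside medians of -0.02 and 0.01 over all genes. Egr1, an activity-induced zinc finger factor, had 288, 262 and 292 CPM in ShK-223 1, 2 and 3, against 84.8, 113 and 212 CPM in Control 1, 2 and 3. Fosl2, an AP-1 subunit, had 38.1, 34.5 and 28.9 CPM in ShK-223 1, 2 and 3, against 11, 20.2 and 25.3 CPM in Control 1, 2 and 3. Dusp6, a feedback phosphatase of ERK, had 86, 54.4 and 68.6 CPM in ShK-223 1, 2 and 3, against 23.5, 27.8 and 55.1 CPM in Control 1, 2 and 3. Egr1 and Fosl2 separated the groups and Dusp6 did not, since Control 3 was just above ShK-223 2. Their log2 fold changes were 1.04 (SE 0.38), 0.84 (SE 0.26) and 0.97 (SE 0.37) with 3 against 3. Control 1 was lowest in each, and the log2 fold change of Egr1 was 0.79 without it and 0.41 without both Control 1 and 2. Nr4a2, an activity-induced nuclear receptor, had 59.7, 32.9 and 34.4 CPM in the ShK-223 libraries, against 24.2, 51 and 21.3 CPM in the Control libraries, at 0.90 (SE 0.29) log2 units without Control 2 and 0.40 (SE 0.35) with it. Fos itself had 53, 18.9 and 44.7 CPM in the ShK-223 libraries, against 7.2, 49.8 and 24.2 CPM in the Control libraries, with the groups overlapping. In batch B (ShK-223 2 over Control 1), 24 of 25 ratios were above 0, and in batch CH 17 of 25.

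Bdnf, the neurotrophin whose transcription follows activity, had 66.6, 22.4 and 22.8 CPM in ShK-223 1, 2 and 3, against 11.7, 17.6 and 12.8 CPM in Control 1, 2 and 3 (chromosome 2, 109674700 to 109727007). Every ShK-223 library was above every Control library, with ShK-223 1 far above the rest, so that the log2 fold change of 1.41 (SE 0.57) with 3 against 3 was 0.69 (SE 0.52) without ShK-223 1 and 1.60 (SE 0.68) without Control 2. Of the 18 neurotrophin and growth genes, 1 was higher and 1 lower at an unadjusted p under 0.05 (beside 2.5% and 4.32% of all genes), and 4 were higher with no overlap (beside 5.26%). The lower one was Ngfr, the p75 neurotrophin receptor, with 2.18, 2.02 and 3 CPM in the ShK-223 libraries, against 6.23, 5.46 and 2.35 CPM in the Control libraries. Control 3 lay within the ShK-223 range of Ngfr. Gdnf, which supports striatal and dopaminergic neurons, had 0.328, 0.952 and 0.107 CPM in the ShK-223 libraries, against 2.01, 0.407 and 1.51 CPM in the Control libraries. It was highest in Control 1 and 3.

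Of 25 presynaptic genes, 2 were higher and 0 lower at an unadjusted p under 0.05 (beside 2.5% and 4.32% of all genes), with a median of 0.16 log2 units with 3 against 3 and 0.15 without Control 2. Syp, synaptophysin of the vesicle membrane, had 604, 546 and 622 CPM in the ShK-223 libraries, against 513, 453 and 552 CPM in the Control libraries. Unc13b, a vesicle priming factor, had 175, 111 and 125 CPM in the ShK-223 libraries, against 100, 76.5 and 100 CPM in the Control libraries. These were the 2, at 0.22 (SE 0.09) and 0.57 (SE 0.25) log2 units with 3 against 3. Without Control 2, 0 of the 25 reached that p, and 8 were higher and 0 lower with no overlap (beside 12% and 12.9% of all genes). Syn1, synapsin, had 726, 619 and 722 CPM in the ShK-223 libraries, against 606, 352 and 618 CPM in the Control libraries. Snap25, of the fusion machinery, had 2190, 2850 and 2890 CPM in the ShK-223 libraries, against 2400, 2470 and 2750 CPM in the Control libraries. Unc13b and Syn1 did not overlap, and Syp and Snap25 did. Of 25 postsynaptic genes, 1 was higher at that p, near the 2.5% of all genes, and the median was 0.15 and 0.09 log2 units with 3 against 3 and without Control 2. That gene, Shank1, a scaffold of excitatory synapses, had 846, 943 and 756 CPM in ShK-223 1, 2 and 3, against 564, 641 and 656 CPM in Control 1, 2 and 3. All ShK-223 libraries were above all Control libraries, at 0.45 (SE 0.11) log2 units with 3 against 3, 0.47 (SE 0.12) without Control 2 and 0.46 (SE 0.13) without ShK-223 1. Homer2, which links glutamate receptors to calcium stores, had 61.4, 71.4 and 68.4 CPM in the ShK-223 libraries, against 43.7, 46.2 and 56.9 CPM in the Control libraries, also with no overlap. Without Control 2, 3 of the 25 postsynaptic genes were higher and 0 lower at an unadjusted p under 0.05 (beside 2.63% and 2.84% of all genes). With no overlap, 9 were higher and 2 lower in that form (beside 12% and 12.9%).

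Of 15 interneuron markers, 4 were lower and 1 higher at an unadjusted p under 0.05 with 3 against 3 (beside 4.32% and 2.5% of all genes), and the lower ones included the genes of GABA synthesis and storage. Slc32a1, the vesicular GABA transporter, had 54.7, 78.9 and 66.2 CPM in ShK-223 1, 2 and 3, against 107, 103 and 90.1 CPM in Control 1, 2 and 3. Every ShK-223 library was below every Control library, at -0.59 (SE 0.14) log2 units with 3 against 3 and -0.57 (SE 0.15) without Control 2. Gad2, the smaller GABA-synthesising enzyme, had 219, 184 and 203 CPM in the ShK-223 libraries, against 319, 208 and 272 CPM in the Control libraries. Gad1, the larger, had 310, 356 and 337 CPM in the ShK-223 libraries, against 410, 533 and 355 CPM in the Control libraries. The fourth was Calb2, calretinin, which is also abundant in the cerebellum and was at 27, 6.83 and 10.4 CPM with ShK-223, against 7.85, 226 and 8.4 CPM in Control. Gad2 overlapped only through Control 2 and was at -0.55 (SE 0.11) log2 units without it. Cort, the cortistatin precursor of some cortical interneurons, was the higher one, with 1.53, 1.51 and 1.29 CPM in the ShK-223 libraries, against 0.454, 0.407 and 0.448 CPM in the Control libraries. The cortical interneuron peptides Sst, Vip and Npy and the factor Lhx6 lay within -0.15 (Sst) and 0.19 (Vip) log2 units without Control 2 and overlapped (chosen after their values were seen). Striatal projection neurons are also GABAergic, and 14 of their 15 markers were lower in batch B and 15 in batch CH.

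Without Control 2, the striatum list had the median farthest from 0 among the 36 lists. The striatal index was 0.138, 0.681 and 0.404 in ShK-223 1, 2 and 3, against 0.995, 0.121 and 0.811 in Control 1, 2 and 3. Adora2a, the adenosine receptor of indirect-pathway neurons, had 2.18, 72.8 and 32.7 CPM in ShK-223 1, 2 and 3, against 104, 1.34 and 91.1 CPM in Control 1, 2 and 3. Drd2, the dopamine receptor of the same cells, had 3.82, 60.1 and 28 CPM in ShK-223 1, 2 and 3, against 86, 4.42 and 69 CPM in Control 1, 2 and 3. ShK-223 1 and Control 2 were low, ShK-223 3 was intermediate, and ShK-223 2, Control 1 and Control 3 were high. Of 15 striatal genes, 0 reached an unadjusted p under 0.05 with 3 against 3 (median -0.76 log2 units). Without Control 2, 12 were lower with no overlap (beside 12.9% of all genes), 2 of them, Penk and Tac1, at an unadjusted p under 0.05, and the median was -1.29. Penk, the enkephalin precursor, had 69.2, 200 and 101 CPM in the ShK-223 libraries, against 427, 68.2 and 265 CPM in the Control libraries. Tac1, the substance P precursor, had 11.1, 38.3 and 22.4 CPM in the ShK-223 libraries, against 65.8, 3.84 and 51.3 CPM in the Control libraries. The part of this difference in the values of Slc32a1, Gad2, Gdnf and Cd4 was not tested. With the striatal index as a term 0 genes were called, as without it, so that count cannot show this part.

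Of 14 tested markers of the hippocampus, 6 were higher and 0 lower at an unadjusted p under 0.05 (beside 2.5% and 4.32% of all genes), 6 were higher with no overlap (beside 5.26%), and the median was 0.90 log2 units with 3 against 3. Without Control 2, 9 were higher with no overlap (beside 12% of all genes) and the median was 1.12. The index was 0.496, 0.407 and 0.512 in ShK-223 1, 2 and 3, against 0.254, 0.311 and 0.245 in Control 1, 2 and 3. Besides Fibcd1 and C1ql2, Spink8, a Kazal-type protease inhibitor, had 1.47, 2.24 and 1.61 CPM in the ShK-223 libraries, against 0.649, 0.988 and 0.448 CPM in the Control libraries. It separated the groups. Prox1, a transcription factor of dentate granule cells that was chosen after its values were seen, had 24, 27.3 and 35.4 CPM in the ShK-223 libraries, against 20, 56.6 and 23.5 CPM in the Control libraries. It overlapped through Control 2. Nrn1 and Bdnf are also abundant in hippocampal neurons, and the part of tissue composition in their values was not tested.

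Of 15 cortical markers, 1 was higher at an unadjusted p under 0.05 with 3 against 3, beside 2.5% of all genes. This was Neurod6, a transcription factor of excitatory projection neurons of cortex and hippocampus. It had 93.4, 65.6 and 72.4 CPM in ShK-223 1, 2 and 3, against 29.1, 25.7 and 54.4 CPM in Control 1, 2 and 3, 1.08 (SE 0.33) log2 units, with no overlap. Slc17a7, the vesicular glutamate transporter of forebrain excitatory neurons, had 1730, 1260 and 1380 CPM in ShK-223 1, 2 and 3, against 1110, 746 and 1240 CPM in Control 1, 2 and 3, also with no overlap, at 0.49 (SE 0.26) log2 units with 3 against 3 and 0.31 (SE 0.25) without Control 2. Without Control 2, 2 cortical markers were higher and 1 lower at an unadjusted p under 0.05 (beside 2.63% and 2.84% of all genes). With no overlap, 5 were higher and 2 lower in that form (beside 12% and 12.9%). The 2 lower ones were Foxp2, the lowest member at -0.86 log2 units, and Bcl11b, chosen after its values were seen. The list median was 0.43 with 3 against 3 and 0.23 without Control 2. The cerebellum list had 14 of 15 members lower at an unadjusted p under 0.05 (beside 4.32% of all genes) and a median of -4.47 log2 units with 3 against 3, with overlap for all 15, since only Control 2 was high. Without Control 2 the median was -0.20 and 0 members reached that p. Choroid plexus genes varied from mouse to mouse in both groups. Ttr, the transthyretin that choroid plexus secretes, had 3.93, 1220 and 354 CPM in ShK-223 1, 2 and 3, against 14.5, 39.2 and 613 CPM in Control 1, 2 and 3, and the median ratio of the list was 3.13 in batch B and -1.44 in batch CH.

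**Figure D3:**
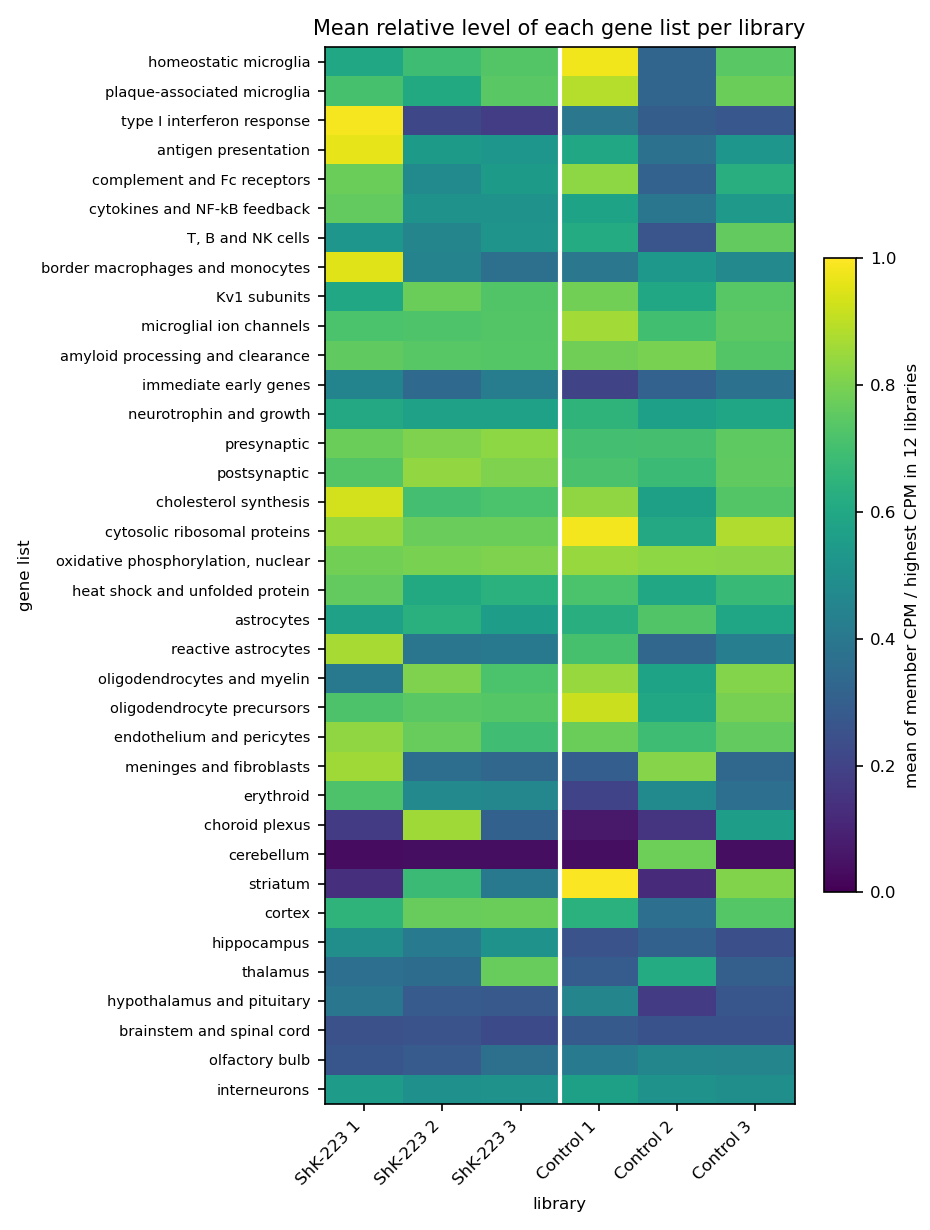
Mean relative level of each of 36 gene lists (rows) in the 3 ShK-223 libraries (left of the white line) and the 3 Control libraries (right), as the mean over members of CPM divided by the gene's highest CPM among 12 libraries, from 0 (dark) to 1 (yellow). Control 2 holds the cerebellar transcript (0.781 against 0.0334 to 0.0386 in the others), ShK-223 1 the interferon transcript (0.986), and Control 1 and 3 the most striatal transcript (0.995 and 0.811).

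Gfap, the filament of reactive astrocytes, had 2320, 1110 and 1330 CPM in ShK-223 1, 2 and 3, against 2560, 528 and 1290 CPM in Control 1, 2 and 3. ShK-223 1 and Control 1 were about equal and above the others, and the log2 fold change was 0.12 (SE 0.54). Cxcl14, a chemokine of astrocytes and neurons, had 84.8, 80.8 and 81.9 CPM in the ShK-223 libraries, against 61, 55.6 and 77.4 CPM in the Control libraries, with no overlap and 0.35 (SE 0.12) log2 units, the 1 of 14 reactive astrocyte genes at an unadjusted p under 0.05 with 3 against 3 (beside 2.5% of all genes higher). Without Control 2, 0 of the 14 reached that p. Mbp, myelin basic protein, had 1450, 2720 and 2490 CPM in ShK-223 1, 2 and 3, against 2530, 1980 and 2710 CPM in Control 1, 2 and 3, lowest in ShK-223 1. Of 16 myelin genes, 0 reached that p, and the median was -0.20 log2 units with 3 against 3 and 0.01 without ShK-223 1. Trf, transferrin, had 312, 453 and 375 CPM in the ShK-223 libraries, against 702, 447 and 429 CPM in the Control libraries, highest in Control 1.

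Cytosolic ribosomal protein genes gave 0 of 40 at an unadjusted p under 0.05 with 3 against 3 (median -0.05 log2 units). Without Control 2, 14 of 40 were lower at that p (beside 2.84% of all genes), 28 were lower with no overlap (beside 12.9%), and the median was -0.23. Rps29 had 92.2, 93.3 and 86.8 CPM in the ShK-223 libraries, against 128, 74 and 116 CPM in the Control libraries. Rps28 had 66.9, 59.6 and 60.5 CPM in the ShK-223 libraries, against 87.2, 53.9 and 79.7 CPM in the Control libraries. Control 2 was the lowest library and Control 1 the highest of the list (index 0.84, 0.77 and 0.774 in ShK-223 1, 2 and 3, against 0.981, 0.603 and 0.88 in Control 1, 2 and 3). The 30 nuclear genes of oxidative phosphorylation had medians of -0.06 and -0.05 log2 units with 3 against 3 and without Control 2. The 22 of cholesterol synthesis had 0.16 and 0.00, and the 20 of heat shock and the unfolded protein response 0.03 and 0.00, in the same order. Srebf2, the regulator of cholesterol synthesis, had 359, 329 and 304 CPM in the ShK-223 libraries, against 285, 206 and 306 CPM in the Control libraries. Hsp90aa1, a cytosolic chaperone, had 1190, 964 and 1070 CPM in the ShK-223 libraries, against 982, 903 and 991 CPM in the Control libraries. Both overlapped.

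**Figure D4:**
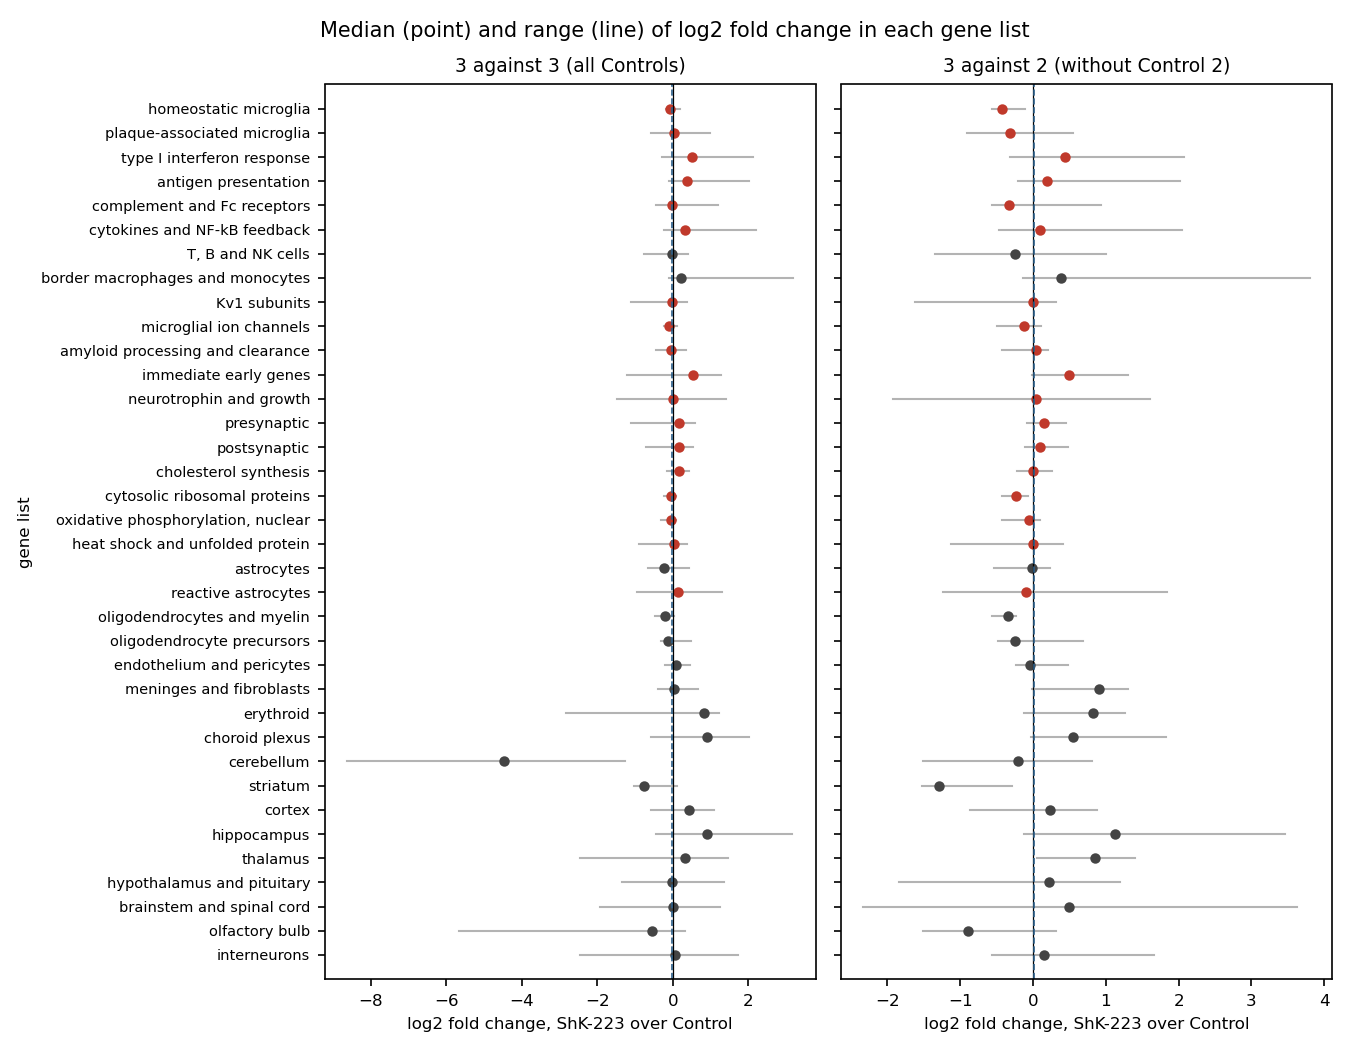
Median (point) and range (line) of log2 fold changes, ShK-223 over Control, for the tested members of each of 36 gene lists, with all Controls (left) and without Control 2 (right, another scale); red points are cell states and functions, dark points cell type and region markers, and the dashed line is the median of all genes. The cerebellum median is -4.47 with all Controls and -0.20 without Control 2, and the striatum median is -0.76 and -1.29.

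Of the 6 libraries, 5 fall in 2 batches named in the labels, and what a batch stands for is not given there. Batch B holds ShK-223 2 and Control 1, batch CH holds ShK-223 1 and 3 and Control 3, and Control 2 is the only one of batch C. By the deposited column names, Control 2 also came from lane 1 with sample number 0, and every other library from lane 7. Its batch, lane and tissue content cannot be told apart in its values. The 2 log2 ratios use different mice. Across 13515 genes with a mean log2 CPM of at least 1, their Pearson r was -0.02 and Spearman's rho 0.06, a description across genes that are not independent replicates, and 52.7% had the same sign. A ratio of more than 2-fold in both batches was found for 65 genes, of which 9 were higher in both, 13 lower in both and 43 opposite. Fibcd1, H2-Eb1, H2-Aa and Cabp7 were among the 9, and P2ry1, Penk and Kcna5 among the 13. With batch as an added term, edgeR called 0 genes in both forms.

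**Figure D5:**
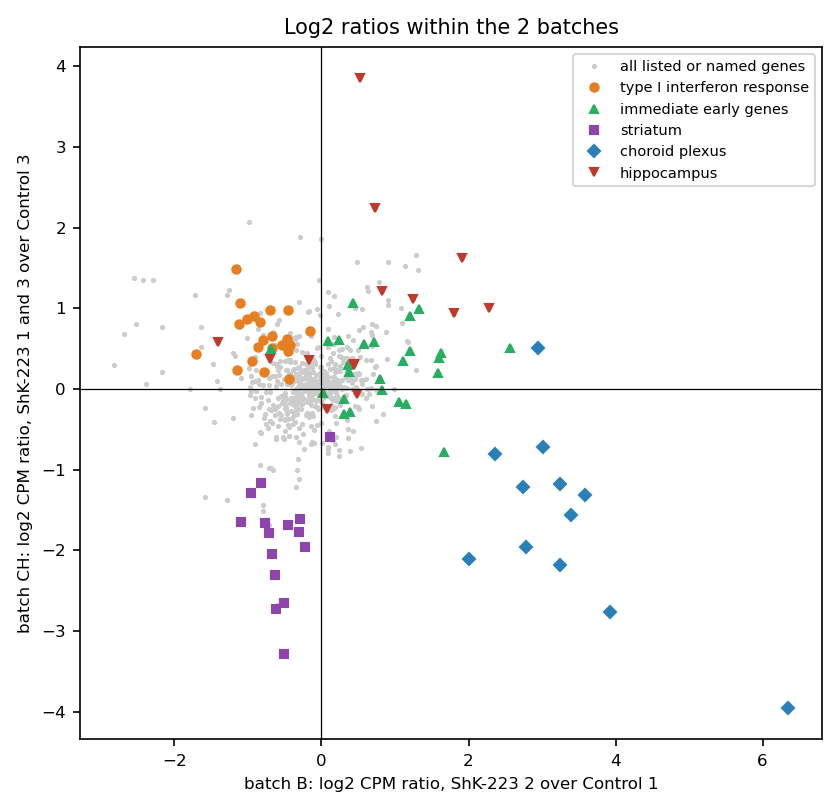
Log2 CPM ratio of ShK-223 over Control in batch B (x axis, ShK-223 2 over Control 1) and in batch CH (y axis, ShK-223 1 and 3 over Control 3) for the listed and named genes (grey) and 5 lists (coloured). Interferon genes lie left of 0 and above 0 (0 of 22 and 22 of 22 above 0), choroid plexus genes mostly right of 0 and below 0, and striatal genes below 0 in batch CH.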

How the data were processed

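Total RNA of 12 brains was sequenced as paired-end libraries, and the authors deposited raw counts per gene, without normalization. STAR 2.7.11a, R 4.3.2, DESeq2 1.40.2 and the build GRCm38/mm10 are named per the submitters' processing notes; the sources used here name no counting tool, strand setting or annotation. Genes with near-identical copies, such as the H2 and haemoglobin families, are therefore uncertain.

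Counts of 21643 rows were tested with edgeR 4.0.16 (TMM scaling, filterByExpr, quasi-likelihood test, group as the only term, Benjamini-Hochberg adjustment over all genes tested, threshold 0.05), with all 12 libraries and again without Control 2. CPM are counts per 1000000 of TMM-scaled totals, and 0.5 CPM was added before within-batch log2 ratios. Standard errors of log2 fold changes are approximate. p-values rest on the spread between mice of a group, estimated over all groups in the fit. There were 3 mice per group, and 2 in Control without Control 2. The script was tested on simulated data. Members and the 36 gene lists (650 symbols, 647 matched) were chosen with earlier results of these data known. Named genes were the leading 8 in each direction and comparison with mean log2 CPM of at least 1 and no overlap (smallest p, since none was called), 21 fixed genes, up to 4 per list by smallest p, and any member of a list shorter than 13; others are stated to be chosen after their values were seen, and some genes named by the rule are not reported here. Chromosome positions are from GENCODE vM21 and promoters from RefSeq (GRCm38.p6). Alternatives were RLE size factors, DESeq2, limma-voom, other filters, batch, RNA integrity and regional indices as terms, the 2 groups alone, and leaving out each library.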

Additional observations from a re-analysis of the deposited data

How the results depend on the processing

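The count of called genes was 0 under every alternative run in both comparisons, except that DESeq2 called 10 genes with 3 against 3 and 18 without Control 2, and that edgeR without Control replicate 3 called 1, so that leaving out single libraries gave 0 to 1. That gene, chosen after its values were seen, was Gnaq, a G-protein subunit, at a log2 fold change of 0.89 (SE 0.09, adjusted p = 0.0308). The number of genes at an unadjusted p under 0.05 ran from 386 to 1769 over the settings with 3 against 3 and from 327 to 954 without Control 2. By DESeq2, 2 hippocampal genes were called in each comparison and 1 interneuron gene without Control 2. Depth and 3 mice per group limit the smallest difference that can be called, and low genes such as Kcna3 have wide errors. No paired analysis was possible because the replicate numbers only follow the order of the samples. Without Control 2, leaving out another Control library left 1, which the fit assumes to vary like the other groups. The cause of the sign changes given next was not tested. With 3 against 3, leaving out single libraries moved the log2 fold change over a range that held both signs for Abtb3 (-0.12 to 0.55), Apoe (-0.34 to 0.04), Cst7 (-0.50 to 0.34), Gfap (-0.28 to 0.81), Itgax (-0.34 to 0.74), Mbp (-0.29 to 0.12), P2ry12 (-0.33 to 0.40), Shisa6 (-1.52 to 1.01), Snap25 (-0.006 to 0.18), Tmem119 (-0.13 to 0.53) and Trem2 (-0.30 to 0.43). Leaving out Control 2 changed the sign for Shisa6, Trem2, Itgax, P2ry12, Tmem119 and Gfap, and leaving out a ShK-223 library also did so for Trem2 and Itgax (ShK-223 3), P2ry12 (ShK-223 2 or 3) and Gfap (ShK-223 1). Cst7 also changed sign by limma-voom (0.42) and with RNA integrity as a term (0.15). In the comparison without Control 2, the corresponding ranges were -2.14 to 1.23 (Gabra6), -0.69 to 0.30 (Gfap), -0.63 to 0.033 (Itgax), -0.056 to 0.15 (Snap25) and -0.36 to 0.13 (Tmem119), and Snap25 was -0.045 with RNA integrity as a term.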

Other observations

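Meningeal fibroblast, thalamic, oligodendrocyte precursor and red cell genes complete the tissue markers. Of 12 meningeal and fibroblast genes, 0 reached an unadjusted p under 0.05 with 3 against 3 (median 0.02 log2 units). Without Control 2, 2 were higher at that p, beside 2.63% of all genes, and the median was 0.90. Lum, the matrix proteoglycan lumican, had 3.66, 2.3 and 2.63 CPM in ShK-223 1, 2 and 3, against 1.23, 2.79 and 1.57 CPM in Control 1, 2 and 3. Slc22a6, an organic anion transporter of the meninges, had 13.5, 5.77 and 4.98 CPM in ShK-223 1, 2 and 3, against 3.24, 14.2 and 4.59 CPM in Control 1, 2 and 3. ShK-223 1 and Control 2 held the most of both transcripts. Dcn, decorin, had 41.1, 8.28 and 8.73 CPM in the ShK-223 libraries, against 8.5, 27.2 and 7.17 CPM in the Control libraries, again with ShK-223 1 and Control 2 highest.

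The thalamus list had medians of 0.32 log2 units with 3 against 3 and 0.85 without Control 2. Plekhg1 had 25.2, 27.8 and 53 CPM in ShK-223 1, 2 and 3, against 23.8, 26.6 and 18.9 CPM in Control 1, 2 and 3. Tnnt1, a troponin found in thalamic neurons, had 2.08, 4.7 and 19.2 CPM in ShK-223 1, 2 and 3, against 2.72, 2.67 and 3.98 CPM in Control 1, 2 and 3. ShK-223 3 was far above the other libraries for both. Of 12 oligodendrocyte precursor genes, 1 was lower at an unadjusted p under 0.05 in each form (beside 4.32% of all genes with 3 against 3 and 2.84% without Control 2), and it was not the same gene. Vcan, the matrix proteoglycan versican, had 23.6, 27.2 and 22 CPM in the ShK-223 libraries, against 36.7, 30.2 and 24.9 CPM in the Control libraries. Neu4, a sialidase, had 7.97, 8.45 and 7.18 CPM in the ShK-223 libraries, against 10.2, 5 and 11.4 CPM in the Control libraries. Hbb-bs, an adult beta globin, had 6.77, 3.02 and 3.91 CPM in the ShK-223 libraries, against 1.62, 2.03 and 4.2 CPM in the Control libraries. Hba-a1, an alpha globin, had 4.59, 2.52 and 3.05 CPM in the ShK-223 libraries, against 0.908, 2.91 and 1.9 CPM in the Control libraries. Both were highest in ShK-223 1.

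Of the genes that DESeq2 called without Control 2, 3 lie outside the naming rule and were chosen after their values were seen. Gramd1b, a sterol transfer protein, had 262, 267 and 259 CPM in the ShK-223 libraries, against 200, 435 and 219 CPM in the Control libraries. Ppm1e, a protein phosphatase, had 267, 221 and 250 CPM in the ShK-223 libraries, against 178, 125 and 190 CPM in the Control libraries. Mki67, a marker of dividing cells, had 5.24, 3.81 and 2.84 CPM in the ShK-223 libraries, against 31.7, 1.28 and 6.44 CPM in the Control libraries, where Control 1 stood far above the rest. None of the 3 was called by edgeR.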
